A study of Mus musculus with 16 samples.

Results

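Parvalbumin interneurons were picked out of the single-nucleus RNA-Seq data of the medial PFC by the counts of a few genes. A nucleus was taken when it held at least 2 unique molecular identifiers (UMIs, each standing for 1 captured RNA molecule) of Gad1 and Gad2 together, at least 1 of Pvalb, none of Sst, Vip, or Lamp5, and at most 1 of Slc17a7. This rule found 165 of the 114512 nuclei (0.144%), which is 3.28% of the 5037 nuclei with at least 2 Gad UMIs and at most 1 Slc17a7 UMI. Because the rule read measured counts, the levels of these 7 genes in the nuclei are a description of the choice and were not tested. The nuclei are called Pvalb-positive below. A parvalbumin cell without a captured Pvalb molecule falls outside the rule, so the shares below are of nuclei that met it and not of all parvalbumin cells. How many such cells were missed was not tested. The study itself assigned parvalbumin neurons with a reference-based method (Azimuth).

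The tissue came from 16 male mice aged 22 weeks, with 4 mice in each of 4 groups. WT control and 3xTg-AD mice were kept in air chambers, and WT alcohol and 3xTg-AD alcohol mice went through repeated weeks of intermittent ethanol vapor. Mice of all 4 groups were injected with pyrazole, which inhibits alcohol dehydrogenase, and the exposed groups also with ethanol before the vapor. By the study's account the tissue was taken days after the vapor had ended, and after the mice had been tested in a water maze. The 3xTg-AD mice, on a B6;129 background, carry human APP and tau transgenes with disease mutations under the neuronal Thy1.2 promoter, so that neurons of all types may express the transgenes. The comparisons ask what the genotype and a history of alcohol intoxication, alone and together, changed in these interneurons, and the mouse was the replicate throughout.

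Parvalbumin interneurons are the fast-spiking GABAergic cells of the cortex. Basket cells among them contact the soma and proximal dendrites of pyramidal neurons, and chandelier cells contact the axon initial segment. They depend on fast potassium channels of the Kv3 family to repolarize quickly, on a dense set of mitochondria for energy, and on parvalbumin, a calcium-binding protein, to shape the calcium transient in the terminal. Many of them carry a perineuronal net, and they pace gamma oscillations. In the cortex they arise from the medial ganglionic eminence together with Sst interneurons, which target distal dendrites instead. For this reason nuclei chosen by the mirrored rule for Sst (1409 nuclei, with Sst present and Pvalb, Vip, and Lamp5 at 0) served as the nearest comparison, beside 348 Vip and 445 Lamp5 nuclei. A parvalbumin cell with a stray Sst UMI and no captured Pvalb molecule can also meet the mirrored rule. How many of the Sst nuclei are such cells was not tested, and Sst was not counted in cells that should lack it.

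The Pvalb-positive nuclei held 404922 UMIs in all, of which 88247 came from WT alcohol mouse 17, so that the pooled levels below lean on that mouse. A nucleus had 2213 UMIs and 1363 detected genes at the median, with a range of 583 to 8523 UMIs, against 1543 UMIs at the median of all nuclei. Pvalb was counted 1 time in 140 nuclei (84.8%), 2 times in 23 (13.9%), 3 times in 1, and 4 times in 1. Most of the nuclei thus entered on a lone Pvalb molecule, and 97 of them had no more than the required 2 Gad UMIs. Gad1, which encodes the larger of the 2 GABA-synthesizing enzymes, was at 0 in 28 nuclei, and Gad2 at 0 in 54. Slc17a7, the vesicular glutamate transporter of pyramidal neurons, had its allowed single UMI in 50 nuclei (30.3%), close to the 30.6% of Sst nuclei. The barcodes of 6 of the nuclei also occurred in another library, as did those of 3400 nuclei in all, and 6 nuclei held more than 2.5 times the median UMI count. No doublet caller was run.

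Nuclei just inside and just outside the thresholds were compared, without a test, by the summed level of 10 parvalbumin-cell markers that the rule did not use (Slc32a1, Erbb4, Kcnc1, Kcnc2, Lhx6, Sox6, Tac1, Syt2, Cplx1, and Cox6a2), in CPM (the UMIs of a gene scaled to a common total of UMIs). The sum was 2148 CPM in nuclei with 1 Pvalb UMI and 2751 CPM in those with 2. It was 2097 CPM in the 97 nuclei with exactly 2 Gad UMIs and 2452 CPM in those with more. Outside the rule, 312 nuclei with 1 Gad UMI reached 1441 CPM and 1027 nuclei with none 765 CPM. The 23 nuclei that had 2 Slc17a7 UMIs stood at 1512 CPM, and the 17 with more at 987 CPM. The 93 nuclei left out for an Sst UMI alone stood at 2385 CPM, those left out for Vip (24 nuclei) at 1976 CPM, and those for Lamp5 (25 nuclei) at 2017 CPM. Marker levels therefore dropped at the Gad and Slc17a7 thresholds, while nuclei turned away for Sst, Vip, or Lamp5 stood between 1976 and 2385 CPM, near the 2275 CPM of the 165 nuclei that were kept.

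Pvalb was also counted in cells that should lack it. Among 2134 GABAergic nuclei without Sst, Vip, or Lamp5, 7.73% had a Pvalb UMI, at a median depth of 1611.5 UMIs. The share was 2.85% in 29001 glutamatergic nuclei (median 2535 UMIs), 2.99% in 1305 oligodendrocyte nuclei (median 912 UMIs), and 1.99% in 1460 astrocyte nuclei (median 1293.5 UMIs). With each nucleus thinned to 1000 UMIs, and shallower nuclei left out, these shares were 4.51%, 1.11%, 1.79%, and 1.56%. The GABAergic share stayed above that of the other types at equal depth, but the other types were not at 0. How many of the Pvalb-positive nuclei hold a stray Pvalb molecule was not tested.

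**Figure D1:**
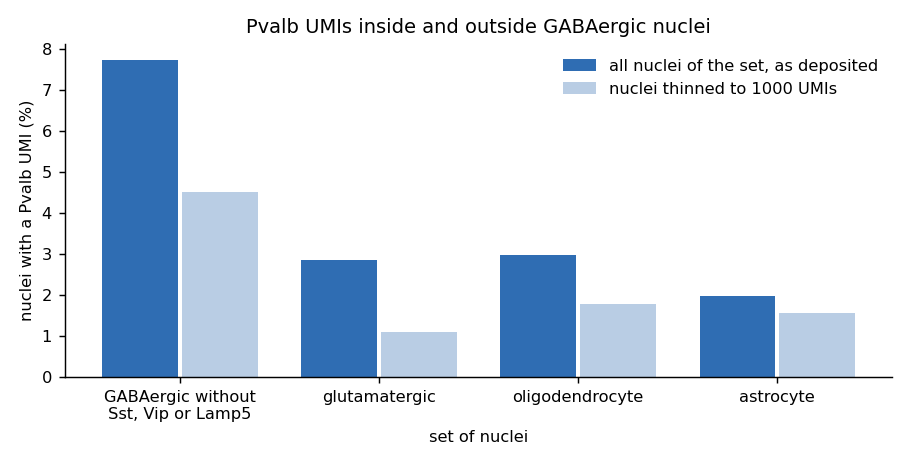
Bars show the percentage of nuclei with at least 1 Pvalb UMI in GABAergic nuclei without Sst, Vip, or Lamp5 and in glutamatergic, oligodendrocyte, and astrocyte nuclei, as counted and with each nucleus thinned to 1000 UMIs. The GABAergic bar stands at 7.73% (4.51% thinned), and those of the other 3 types lie between 1.99% and 2.99% (1.11% to 1.79% thinned).

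The markers that the rule did not use went with the label. The 10 markers summed to 2275 CPM in Pvalb-positive nuclei, against 1348 CPM in Sst, 1391 CPM in Vip, 1145 CPM in Lamp5, and 251 CPM in glutamatergic nuclei. GABAergic nuclei with neither Pvalb nor any of the other 3 markers (1969 nuclei) stood at 1432 CPM. A Pvalb-positive nucleus held a mean of 3.07 of the 10 markers and an Sst nucleus 1.86, and thinned to 1000 UMIs the means were 1.59 over 143 nuclei and 1.13 over 1199 nuclei, with 22 and 210 shallower nuclei left out. At least 3 markers were present in 98 Pvalb-positive nuclei (59.4%) and in 31.4% of Sst nuclei, whereas 24 Pvalb-positive nuclei (14.5%) had none. The last group cannot be told from other interneurons by these genes.

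**Figure D2:**
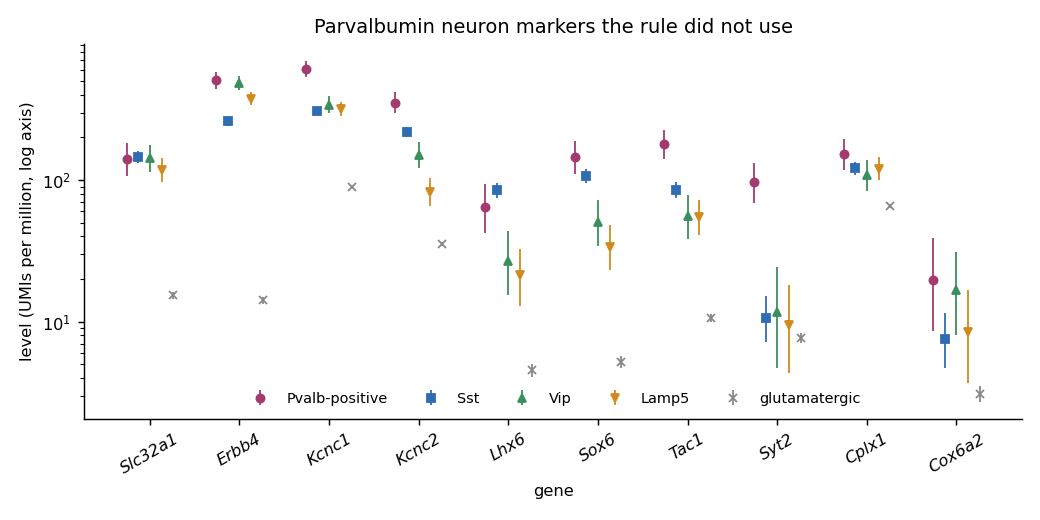
Points give the pooled level (CPM, log axis, with exact 95% Poisson intervals) of the 10 markers not used by the rule in Pvalb-positive, Sst, Vip, Lamp5, and glutamatergic nuclei. Pvalb-positive nuclei are highest for most markers, with Syt2 at 96.3 CPM against 10.6 CPM in Sst nuclei, while Lhx6 and Slc32a1 are as high or higher in Sst nuclei.

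Against Sst nuclei, 8 of the 10 markers were higher in the pooled counts, with a median ratio of 1.79. Over all genes with at least 20 UMIs in Pvalb-positive and Sst nuclei together, 4935 of 11658 (42.3%) were higher, with a median ratio of 0.94. Syt2, the fast calcium sensor of the parvalbumin terminal, showed the widest gap, at 96.3 CPM against 10.6 CPM in Sst, 11.8 CPM in Vip, and 9.53 CPM in Lamp5 nuclei. It was detected in 10 of the 16 mice, and by mouse its level was 112, 136, 0, and 232 CPM in WT control, 0, 51.4, 113, and 83.7 CPM in WT alcohol, 71.2, 0, 99.2, and 0 CPM in 3xTg-AD, and 0, 0, 76.3, and 254 CPM in 3xTg-AD alcohol. The zeros came from mice with at most 10 Pvalb-positive nuclei, where a gene of this level leaves few UMIs. Poisson intervals, as all intervals given here, cover counting error only.

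Kcnc1 encodes Kv3.1, the channel behind fast spiking. Its pooled level was 612 CPM, against 307 CPM in Sst, 341 CPM in Vip, 319 CPM in Lamp5, and 89.6 CPM in glutamatergic nuclei, and it was higher than in the Sst nuclei of the same mouse in 12 of 16 mice. By mouse it was 587, 545, 287, and 1007 CPM in WT control and 275, 822, 657, and 251 CPM in WT alcohol. In 3xTg-AD mice it was 641, 0, 695, and 194 CPM, and in 3xTg-AD alcohol mice 524, 654, 686, and 811 CPM. The 4 groups overlapped, and the lowest 2 values came from 3xTg-AD mice 13 and 21, which gave 1 and 2 Pvalb-positive nuclei.

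Erbb4, the neuregulin receptor through which excitatory input onto parvalbumin cells is assembled, stood at 509 CPM against 260 CPM in Sst nuclei, but at 484 CPM in Vip nuclei, so its level set Pvalb-positive nuclei apart from Sst nuclei and not from Vip nuclei. By mouse Erbb4 was 587, 490, 287, and 620 CPM in WT control, 440, 976, 431, and 293 CPM in WT alcohol, 605, 0, 595, and 0 CPM in 3xTg-AD, and 429, 829, 420, and 406 CPM in 3xTg-AD alcohol. Groups overlapped here as well. Ppargc1a, the coactivator that drives mitochondrial genes and Pvalb itself, was at 148 CPM against 68.0 CPM in Sst nuclei and higher in all 16 mice. Its values were 196, 109, 287, and 155 CPM in WT control, 110, 103, 159, and 209 CPM in WT alcohol, 178, 323, 99.2, and 194 CPM in 3xTg-AD, and 95.2, 174, 76.3, and 101.4 CPM in 3xTg-AD alcohol.

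Other identity genes followed. Of 22 with enough counts, 18 were higher than in Sst nuclei, with a median ratio of 1.60. Mef2c, a transcription factor needed for parvalbumin cell maturation, was at 1729 CPM against 1206 CPM (higher in 15 of 16 mice). Cemip, at 173 CPM against 46.7 CPM, Btbd11, at 180 CPM against 75.5 CPM, and Tac1, which encodes the substance P precursor, at 180 CPM against 85.1 CPM, were each higher in at least 13 mice. Sox6 and Lhx6, factors of the medial ganglionic eminence lineage, were at 146 and 64.2 CPM, near the 107 and 84.8 CPM of Sst nuclei and above the 26.9 and 21.2 CPM of Lhx6 in Vip and Lamp5 nuclei. Slc32a1, the vesicular GABA transporter common to all interneurons, was at 141 CPM against 147 CPM. The chandelier genes Unc5b, Vipr2, and Pthlh had 2, 5, and 2 UMIs in total, too few to say whether chandelier cells were among the nuclei.

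Markers of the other interneuron classes were below their level in Sst nuclei. The Sst-cell genes Grin3a (56.8 CPM against 262 CPM), Elfn1 (4.94 CPM against 104 CPM), and Npy (158 CPM against 417 CPM) were above their level in Sst nuclei in at most 1 of 16 mice. Cnr1, the cannabinoid receptor of Cck basket cells, was at 39.5 CPM against 260 CPM in Sst and 700 CPM in Vip nuclei, and Reln at 59.3 CPM against 219 CPM. Sncg, Cck, and Cnr1 together summed to 654 CPM against 981 CPM in Sst nuclei, with Sncg at 0, so that most of this sum was Cck and was not low. Adarb2, of caudal origin, was at 61.7 CPM against 1313 CPM in Vip nuclei. None of the listed markers of Sst, Vip, Lamp5, and Sncg cells with enough counts (4, 4, 3, and 2 genes) was higher than in Sst nuclei.

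RNA of other cell types was present too. The 5 glutamatergic markers summed to 1294 CPM, the 5 astrocyte markers to 771 CPM, and the 5 oligodendrocyte markers to 272 CPM, and of those with enough counts (5, 5, and 4 genes) none was higher than in Sst nuclei. Microglial, oligodendrocyte precursor, and endothelial markers summed to 79.0, 27.2, and 27.2 CPM, against 86.2, 19.6, and 33.99 CPM in Sst nuclei. With enough counts, 1 of 5 microglial and 1 of 3 endothelial markers were higher than in Sst nuclei, as was the lone precursor marker, Pdgfra (9 UMIs, ratio 2.23). By mouse, the glutamatergic sum ranged from 1117 to 2822 CPM in WT control, 691 to 2310 CPM in WT alcohol, 463 to 1361 CPM in 3xTg-AD, and 609 to 1640 CPM in 3xTg-AD alcohol. The astrocyte sum ranged from 327 to 1339, 408 to 1650, 323 to 695, and 304 to 2238 CPM in the same order, and the oligodendrocyte sum from 38.7 to 287, 51.4 to 385, 0 to 194, and 152 to 762 CPM. The groups overlapped in all 3 sums, and their part in the values below was not tested.

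The ion channels of fast spiking were then compared with Sst nuclei, as a description. Among other Kv3 subunits, Kcnc2 stood at 353 CPM against 219 CPM, and Kcnc4, with 4 UMIs, at 9.88 CPM against 23.3 CPM. The low-threshold Kv1 channels Kcna1 (252 CPM against 138 CPM) and Kcna2 (282 CPM against 177 CPM), which sit at the axon initial segment and keep firing precise, were also higher, in 12 and 11 of 16 mice. Kcnc2 by mouse was 419, 327, 287, and 349 CPM in WT control, 440, 308, 408, and 377 CPM in WT alcohol, 178, 0, 149, and 0 CPM in 3xTg-AD, and 571, 218, 381, and 507 CPM in 3xTg-AD alcohol. The unexposed 3xTg-AD mice, with 1 to 12 nuclei each, lay below the other 3 groups, but Kcnc2 was not called in 3xTg-AD versus WT control, where 0.504% of genes were (log2 fold change -1.45, SE 0.87, edgeR adjusted p = 0.975). That fit sets 1 3xTg-AD mouse against 2 WT control mice, so that a change of this size could go uncalled. The zeros of 3xTg-AD mice 13 and 21 came from 1 and 2 nuclei, where a gene of this level leaves few UMIs. How many other genes set the unexposed 3xTg-AD mice apart in this way was not counted. The exposed 3xTg-AD mice overlapped both WT groups.

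The sodium channels split by gene. Scn1a, which encodes the Nav1.1 channel of parvalbumin cells, was at 630 CPM against 367 CPM in Sst nuclei (higher in 13 mice), and Scn8a at 353 CPM against 240 CPM (13 mice). Scn2a was lower in all 16 mice, at 304 CPM against 485 CPM. The leak channel Nalcn (49.4 CPM against 103 CPM, higher in 1 mouse) and the subunit Scn3b (34.6 CPM against 93.4 CPM) were also on the lower side. Over the lists, 24 of 40 potassium channel and modulator genes were higher (median ratio 1.09) and 7 of 14 sodium channel and ankyrin genes (median ratio 0.87). The potassium list thus leaned to the higher side relative to the 42.3% of all genes, and the sodium list was split evenly.

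**Figure D3:**
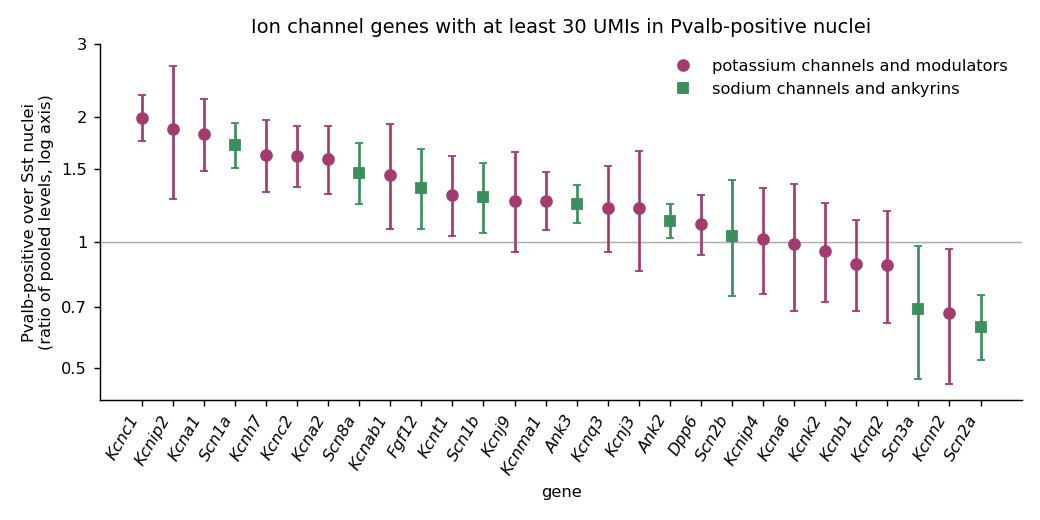
Points give the ratio of the pooled level in Pvalb-positive nuclei to that in Sst nuclei (log axis) for 28 potassium channel, modulator, sodium channel, and ankyrin genes with at least 30 UMIs in Pvalb-positive nuclei, with bars for the 95% Poisson interval of the Pvalb-positive count. Kcnc1 is highest and Scn2a lowest at 0.63, and since genes were kept by their counts in Pvalb-positive nuclei, the number of ratios above 1 is not a result.

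Among calcium handling genes, 14 of 39 were higher (median ratio 0.81). Cacna2d2, a calcium channel subunit of fast-spiking terminals, was at 259 CPM against 185 CPM in Sst and 53.8 CPM in Vip nuclei, Cacna1d at 524 CPM against 342 CPM, and the exchanger Slc24a2 at 489 CPM against 320 CPM (13 mice). GABA receptor, transporter, and synthesis genes were higher in 9 of 20 (median ratio 0.92). Gabrd, which forms extrasynaptic receptors, was at 88.9 CPM against 27.5 CPM (10 mice). Glrb, the glycine receptor beta subunit that anchors to gephyrin, was at 136 CPM against 89.6 CPM (12 mice).

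Glutamate receptor genes were mostly lower, with 6 of 27 above Sst nuclei (median ratio 0.76). Gria4, the AMPA receptor subunit with fast kinetics, was at 506 CPM against 321 CPM and higher in 12 mice. Grin2a (351 CPM against 460 CPM) and the kainate receptors Grik1 (158 CPM against 268 CPM) and Grik2 (121 CPM against 214 CPM) were on the lower side, with Grin2a higher in 3 mice and Grik2 in 2. The receptor list thus held Gria4 on the higher side beside several NMDA and kainate subunits on the lower side.

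Of the perineuronal net and matrix genes, 7 of 19 were higher (median ratio 0.82). The net components Bcan (178 CPM against 99.9 CPM) and Hapln4 (44.5 CPM against 24.0 CPM) and the protease Adamts15 (42.0 CPM against 8.93 CPM) were among them, and the aggrecan gene Acan had 3 UMIs. Of the adhesion genes, 23 of 64 were higher (median ratio 0.93). Il1rapl1, an organizer of excitatory synapses, was at 850 CPM against 483 CPM (14 mice), whereas the neurexin Nrxn3 (840 CPM against 1378 CPM) and the cell-surface protein Negr1 (319 CPM against 545 CPM) were lower in all 16 mice. Vesicle release genes were higher in 12 of 42 (median ratio 0.86), with Syt1 at 1383 CPM against 1701 CPM, the reverse of Syt2. Genes of opioid, CRF, cannabinoid, and peptide signaling were higher in 5 of 23 (median ratio 0.58).

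Alzheimer's disease risk and amyloid-processing genes (10 of 24 higher, median ratio 0.95), mitochondrial and oxidative phosphorylation genes (14 of 37, 0.93), chaperones (10 of 23, 0.92), activity-dependent genes (6 of 16, 0.92), and MHC and interferon genes (3 of 16, 0.75) lay near or below the 42.3% and ratio 0.94 of all genes. App, the mouse gene of the amyloid precursor, was at 640 CPM against 693 CPM, and Apoe, made mostly by astrocytes, at 793 CPM against 1223 CPM.

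The share of nuclei that were Pvalb-positive was examined next by group. WT control mice gave 18, 17, 7, and 8 such nuclei (mice 26, 27, 28, and 36), which is 0.258%, 0.343%, 0.1003%, and 0.124% of their nuclei. WT alcohol mice gave 9, 12, 22, and 13 (mice 6, 7, 17, and 18), or 0.101%, 0.184%, 0.312%, and 0.146%. The 3xTg-AD mice gave 8, 1, 12, and 2 (mice 12, 13, 14, and 21), or 0.136%, 0.0140%, 0.167%, and 0.0277%. The 3xTg-AD alcohol mice gave 10, 7, 13, and 6 (mice 4, 31, 33, and 34), or 0.110%, 0.0972%, 0.143%, and 0.121%. The highest 2 shares were in WT mice and the lowest 2 in unexposed 3xTg-AD mice, and the ranges of the 4 groups overlapped. The highest share, that of WT control 27, includes 6 nuclei with at least 3 Meis2 UMIs, described below. They summed to 842 CPM of the 10 markers not used by the rule, against 2370 CPM in the other nuclei of that mouse. The share was not recounted without them.

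**Figure D4:**
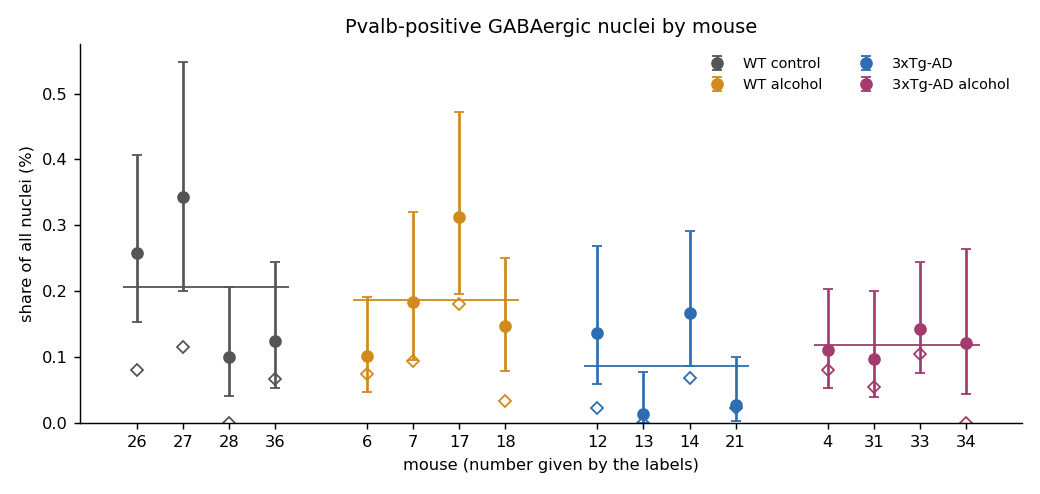
Filled points show the percentage of a mouse's nuclei that were Pvalb-positive, with exact 95% binomial intervals, open diamonds the same share with each nucleus thinned to 1000 UMIs, and lines the group means of the filled points. WT mice reach 0.343% and 0.312%, 3xTg-AD mice 13 and 21 lie at 0.0140% and 0.0277%, and the thinned shares are lower in all 16 mice.

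The mean share was 0.206 ± 0.114% in WT control, 0.186 ± 0.0909% in WT alcohol, 0.0863 ± 0.0769% in 3xTg-AD, and 0.118 ± 0.0193% in 3xTg-AD alcohol (SD, n = 4). Over both exposures the 8 3xTg-AD mice stood at 0.102 ± 0.0546% and the 8 WT mice at 0.196 ± 0.0962%, a difference of -0.0939 percentage points (two-sided exact permutation test, p = 0.0333, Benjamini-Hochberg adjusted over 7 contrasts 0.233). The difference between genotypes did not pass the correction. The difference was -0.120 percentage points in 3xTg-AD versus WT control and -0.0680 in 3xTg-AD alcohol versus WT alcohol (both with an exact permutation p of 0.171), and exposed mice differed from unexposed mice by 0.00567 (exact permutation p = 0.908). In the remaining 3 contrasts the exact permutation p was 0.257 or more, and 4 against 4 mice cannot go below 0.0286.

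Several values moved with the genotype difference in the share. Thinned to 1000 UMIs, which left out 7511, 10196, 9341, and 8922 nuclei of the 4 groups in the order above, 11, 20, 5, and 14 nuclei met the rule, and the genotype difference was -0.0363 percentage points (exact permutation p = 0.144). As a share of GABAergic nuclei it was 2.82% against 3.65% (exact permutation p = 0.295). Sst nuclei by the mirrored rule were also less frequent in 3xTg-AD mice, at 1.02% against 1.47% of nuclei (exact permutation p = 0.0272, adjusted over 7 contrasts 0.1), and per 100 Sst nuclei there were 11.1 Pvalb-positive nuclei in 3xTg-AD and 14.5 in WT mice (exact permutation p = 0.448). Pvalb over all nuclei was 13.7 ± 4.34 CPM in 3xTg-AD and 25.4 ± 8.24 CPM in WT mice (SD, n = 8, exact permutation p = 0.00155, adjusted over 7 contrasts 0.0109), UMIs that include those the rule used. Of the measures of this paragraph, this genotype difference alone passed the correction, which ran over the 7 contrasts of a measure and not over the measures together. It was -13.1 to -9.68 CPM with single mice left out (exact permutation p up to 0.00544) and -9.33 CPM without the 3 libraries described next. Most nuclei with a Pvalb UMI lay outside the rule. Among them were 826 glutamatergic nuclei and 1027 nuclei that lacked a Gad UMI but met its other terms. The measure over all nuclei thus reads mainly UMIs of nuclei other than the 165 Pvalb-positive ones. Pvalb is a gene of the rule and this measure was outside the design. The value is therefore no separate support for a genotype difference in Pvalb-positive nuclei. Glutamatergic nuclei had a Pvalb UMI in 2.04% against 3.62% (exact permutation p = 0.0297, adjusted 0.104). WT control 26 stood apart in both, at 39.8 CPM against 19.6 to 19.8 CPM and at 6.03% against 2.72% to 2.78% in the other WT control mice. Without it the glutamatergic difference had an exact permutation p of 0.0531. The exact permutation p was also above 0.05, up to 0.0622, without WT alcohol 17 or 18, 3xTg-AD 12 or 13, or 3xTg-AD alcohol 31. The part of these values in the difference in the share was not tested.

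Libraries that stood apart also touched the share. WT control mice 26 and 27 and 3xTg-AD mouse 12 held at least 17914 CPM of Gm42418, a lincRNA that overlaps ribosomal RNA sequence, over all their nuclei, against 2059 to 4249 CPM in the other 13 mice. The 2 WT control mice were also those with the most Pvalb-positive nuclei of their group. Without these 3 mice the shares were 0.0972% in 7 3xTg-AD and 0.161% in 6 WT mice, a difference of -0.0641 percentage points (exact permutation p = 0.122). The contrast of 3xTg-AD alcohol versus WT control then lay at 0.00581 in place of -0.0882 percentage points.

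Gene levels were compared between groups on the counts summed per mouse over Pvalb-positive nuclei. Of the 16 mice, 8 gave the 10 nuclei required (WT control 26 and 27, WT alcohol 7, 17, and 18, 3xTg-AD 14, and 3xTg-AD alcohol 4 and 33), with 117 nuclei and 595 genes passing the filter on low counts. The 3xTg-AD group had a lone mouse, which was assumed to vary like the other groups. Both WT control mice were of the libraries rich in Gm42418, so in contrasts with WT control that feature and the group cannot be told apart within these 8 mice. In counts simulated for this size, edgeR called 4.30% of genes changed 2-fold between genotypes and 76.7% of those changed 4-fold, beside 0 and 15 unchanged genes, so that a 2-fold change would mostly go uncalled.

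Few genes were called. With edgeR's quasi-likelihood test and an adjusted p (Benjamini-Hochberg) of at most 0.05, 3xTg-AD versus WT control gave 3 genes (0.504% of those tested), WT alcohol versus WT control 5 (0.84%), and 3xTg-AD alcohol versus WT control 4 (0.672%). The contrast of genotype over both exposures gave 1 gene (0.168%), that of alcohol over both genotypes 2 (0.336%), and their interaction 1 (0.168%). The contrasts of 3xTg-AD alcohol with 3xTg-AD and with WT alcohol each gave 0 genes in edgeR (0%), with 26 and 29 genes at an unadjusted p under 0.05 and 0 calls by DESeq2. Calls were thus made only in contrasts that hold the WT control mice.

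Gm42418 and Lars2 accounted for most calls. Gm42418 (chromosome 17, 39846958 to 39848788, plus strand, GRCm38) was at 34953 and 15641 CPM in the Pvalb-positive nuclei of WT control mice 26 and 27, at 10075 CPM in 3xTg-AD mouse 12, and between 1178 and 7776 CPM in the other 13 mice. Lars2, the mitochondrial leucyl-tRNA synthetase, was at 2710 and 1444 CPM in WT control 26 and 27, 191 and 194 CPM in WT control 28 and 36, and 47.6 to 968 CPM in the other 12 mice. In both genes mice 26 and 27 stood above all others, and WT control mice 28 and 36 did not. Relative to WT control, the log2 fold change of Gm42418 was -3.26 (SE 0.71, edgeR adjusted p = 0.00156) in 3xTg-AD, -3.29 (adjusted p = 3.72e-10) in WT alcohol, and -3.61 (adjusted p = 2.11e-08) in 3xTg-AD alcohol. For Lars2 it was -2.70 (adjusted p = 0.0314), -3.24 (adjusted p = 6.69e-10), and -3.34 (adjusted p = 9.82e-07). With the Gm42418 level of the whole library as a covariate, the sign of Lars2 turned in all 3 contrasts (log2 fold changes of 3.23, 2.93, and 3.45, with SEs of 2.44, 2.45, and 2.72), and none was called. The call of Lars2 in 3xTg-AD versus WT control was kept in 2 of 7 fits that left out a mouse and was lost without WT control 26, WT alcohol 7 or 18, or 3xTg-AD alcohol 4 or 33 (edgeR adjusted p up to 0.174), with log2 fold changes of -3.03 to -2.29. In 3xTg-AD alcohol it was lost without 3xTg-AD alcohol 4 (adjusted p = 0.190, log2 fold changes over 8 fits of -5.47 to -2.60), and that of Gm42418 in 3xTg-AD without WT control 26 (0.0801, -3.68 to -2.69 over 7 fits).

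The averaged contrasts held the same pair. Gm42418 was called for genotype (log2 fold change -1.79, SE 0.42, edgeR adjusted p = 0.0117) and alcohol (-1.82, adjusted p = 0.00106), and Lars2 for alcohol (-1.94, adjusted p = 0.0392). Each of these calls was kept in 3 of 7 fits that left out a mouse. Gm42418 was not called without WT control 26, WT alcohol 7, or 3xTg-AD alcohol 4 or 33 (edgeR adjusted p up to 0.608 for genotype and 0.802 for alcohol), with log2 fold changes no nearer to 0 over all 7 fits than -1.51 and -1.52, and Lars2 not without WT control 26, WT alcohol 7 or 18, or 3xTg-AD alcohol 4 (up to 0.911, log2 fold changes of -2.99 to -1.55). Bc1, a noncoding RNA of dendrites (chromosome 7, 144914470 to 144914637, plus strand), was called in WT alcohol versus WT control, at -1.56 (SE 0.42, adjusted p = 0.0259). Its levels were 4582, 2997, 2391, and 2556 CPM in WT control and 1815, 1284, 1394, and 1422 CPM in WT alcohol. All 4 control mice, fitted or not, were above the exposed ones, but how many other genes separate these groups in this way was not counted. The call was kept in 3 of 8 fits that left out a mouse and was lost without WT control 26 or 27, WT alcohol 7, or 3xTg-AD alcohol 4 or 33, with log2 fold changes of -1.73 to -1.30 and an edgeR adjusted p of up to 0.623. Over whole libraries Bc1 was at 4461 and 3764 CPM in WT control 26 and 27 and 4550 CPM in 3xTg-AD 12, the libraries rich in Gm42418, against 1256 to 2160 CPM in the other 13 mice. WT control lay above WT alcohol in all nuclei too (2130 CPM or more against 1648 to 1920 CPM) and in Sst nuclei (1901 to 4128 CPM against 1509 to 1777 CPM). With all 16 mice Bc1 was at -1.11 (edgeR adjusted p = 0.783) and was not called, and without the 3 libraries at -0.70 (0.997).

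**Figure D5:**
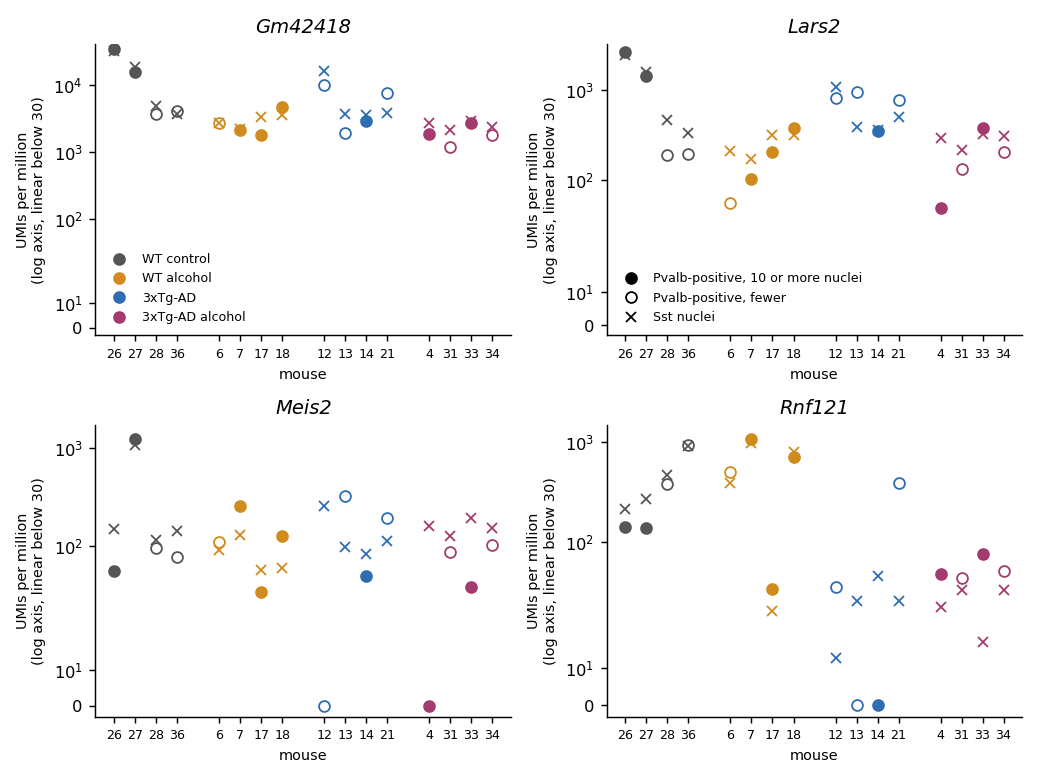
The 4 panels show Gm42418, Lars2, Meis2, and Rnf121 in CPM by mouse (log axis, linear below 30) in Pvalb-positive nuclei, with filled points for mice with at least 10 such nuclei, open points for those with fewer, and crosses for the Sst nuclei of the same mouse. WT control mice 26 and 27 are highest for Gm42418 and Lars2, WT control 27 alone for Meis2 at 1253 CPM, and Rnf121 is low in 3xTg-AD mice and in WT alcohol mouse 17, with 3xTg-AD mouse 21 at 389 CPM.

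Meis2 and Epha5 rested on a lone mouse. Meis2, a homeobox factor of the ganglionic eminences that is kept in subsets of neurons (chromosome 2, 115863064 to 116065839, minus strand), was called lower in WT alcohol (log2 fold change -2.78, SE 0.67, edgeR adjusted p = 0.00509) and 3xTg-AD alcohol (-4.93, adjusted p = 0.000561) than in WT control. Its level was 1253 CPM in WT control 27 and 55.9, 95.6, and 77.4 CPM in WT control 26, 28, and 36, with 0 to 323 CPM in the other 12 mice. Of the 72 Meis2 UMIs in all Pvalb-positive nuclei, 46 came from the 17 nuclei of WT control 27, of which 6 held at least 3 each. In the other 15 mice 1 of 148 nuclei did. These 6 nuclei summed to 842 CPM of the 10 parvalbumin-cell markers, against 2370 CPM in the remaining nuclei of that mouse. In the whole library of WT control 27 Meis2 was at 741 CPM against 204 to 346 CPM elsewhere, and in its Sst nuclei at 1067 CPM against 56.3 to 254 CPM. Epha5, an ephrin receptor of axon guidance (chromosome 5, 84054761 to 84417382, minus strand), was called in 3xTg-AD alcohol versus WT control at -1.99 (SE 0.54, adjusted p = 0.0333), with 1907 CPM in WT control 27 and 0 to 925 CPM in the other 15 mice. Its call was kept in 3 of 8 fits that left out a mouse, and without WT control 27 its log2 fold change was -0.87. For Meis2, 6 of the 8 such fits gave a value in each contrast, and those without WT control 27 or 3xTg-AD 14 did not. Its call was lost in WT alcohol without WT alcohol 17 or 18 (log2 fold changes over the 6 fits of -3.76 to -2.05), and in 3xTg-AD alcohol without WT alcohol 18 or 3xTg-AD alcohol 4 or 33 (-7.60 to -4.23).

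Gm47283 lies on chromosome Y (90784738 to 90816464, plus strand) and was the lone gene called higher. Relative to WT control its log2 fold change was 3.78 (SE 0.77, edgeR adjusted p = 0.000517) in 3xTg-AD and 3.16 (adjusted p = 0.000135) in WT alcohol, and the alcohol effect in 3xTg-AD less that in WT mice (the interaction) was -4.78 (SE 0.92, adjusted p = 0.000130). Its levels were 27.9, 81.7, 95.6, and 271 CPM in WT control and 330, 308, 601, and 669 CPM in WT alcohol. In 3xTg-AD mice they were 71.2, 645, 893, and 0 CPM and in 3xTg-AD alcohol mice 238, 131, 343, and 304 CPM. The WT groups did not overlap in these nuclei, but how many other genes separate them was not counted. The fitted 3xTg-AD value was the highest of its group, and in the interaction that mouse alone stood for its group. The interaction was -5.74 to -4.16 over 7 fits that left out another mouse, and none of them could leave out the lone 3xTg-AD mouse. Without WT control 26 the calls in 3xTg-AD and WT alcohol were lost (edgeR adjusted p = 0.0801 and 0.129), while over the fits that left out a mouse the log2 fold changes stayed at 3.15 to 4.74 and 2.55 to 4.16. Over whole libraries Gm47283 was lowest in the 3 libraries rich in Gm42418, at 132 and 130 CPM in WT control 26 and 27 and 100.4 CPM in 3xTg-AD 12, against 229.9 to 651 CPM in the other 13 mice. There the WT groups overlapped, with WT control 28 and 36 at 421 and 328 CPM and WT alcohol 6 and 7 at 229.9 and 238 CPM. With all 16 mice the log2 fold change in WT alcohol was 2.10 (edgeR adjusted p = 0.0720), and the gene was not called.

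All 16 mice were then fitted with no minimum of nuclei, a choice made after seeing the data, since 8 mice had dropped out. Of 295 genes passing the filter, edgeR called 1 in 3xTg-AD alcohol versus WT control (0.339%, Gm42418, log2 fold change -2.91), 1 for genotype (0.339%), 2 for alcohol (0.678%, Gm42418 at -2.03 and Lars2 at -2.18), and 0 (0%) in the remaining 5 contrasts. The gene called for genotype was Rnf121 (log2 fold change -2.78, SE 0.67, adjusted p = 0.0408), a ubiquitin ligase of the endoplasmic reticulum and Golgi (chromosome 7, 102019137 to 102065469, minus strand). In counts simulated at this size, 41.3% of 2-fold and 100% of 4-fold changes between genotypes were called, beside 3 and 12 unchanged genes. This simulation and that for 8 mice gave all genes the same spread and held no outlying mouse. They also changed a larger share of genes than was called in the data (with 16 mice 46 of 344 and 88 of 348 tested). Real changes of these sizes could therefore go uncalled more often.

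Rnf121 and AC149090.1, described next, were chosen after their values were seen. Rnf121 was at 140, 136, 383, and 929 CPM in WT control (5, 5, 4, and 24 UMIs) and 495, 1079, 34, and 711 CPM in WT alcohol (9, 21, 3, and 17 UMIs). In 3xTg-AD it was at 35.6, 0, 0, and 389 CPM (1, 0, 0, and 2 UMIs), and in 3xTg-AD alcohol at 47.6, 43.6, 76.3, and 50.7 CPM (1, 1, 2, and 1 UMIs). The 3xTg-AD mice stood below 7 of the 8 WT mice, apart from mouse 21, whose value comes from 2 UMIs, and the exception among WT mice was WT alcohol 17. The same split ran through the whole libraries, with Rnf121 over all nuclei at 213 to 1176 CPM in 7 WT mice, 21.3 CPM in WT alcohol 17, and 20.4 to 24.9 CPM in the 8 3xTg-AD mice. In Sst nuclei it was at 216 to 967 CPM, 25.6 CPM, and 12.7 to 45.5 CPM in the same order. The fall in 3xTg-AD was thus not particular to Pvalb-positive nuclei.

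Without the 3 libraries rich in Gm42418, 13 mice and 395 genes remained. Rnf121 was then called for genotype (log2 fold change -3.14, edgeR adjusted p = 6.55e-06), in 3xTg-AD alcohol versus WT control (-3.44), and versus WT alcohol (-2.93). AC149090.1, a protein-coding gene of an unplaced scaffold, was called for genotype (-1.88, adjusted p = 5.91e-05) and in both contrasts of 3xTg-AD mice with WT control (-2.26 and -2.37). It was at 838, 1308, 2486, and 4143 CPM in WT control and 1925, 1079, 2482, and 1339 CPM in WT alcohol, and at 1922, 323, 992, and 778 CPM in 3xTg-AD and 809, 305, 229, and 1014 CPM in 3xTg-AD alcohol. The genotypes overlapped, with 3xTg-AD mouse 12 among the higher values. Srsf11, a splicing factor also chosen after its values were seen, was called in 3xTg-AD alcohol versus 3xTg-AD (3.23). It was at 323, 49.6, and 0 CPM (1, 1, and 0 UMIs) in 3xTg-AD 13, 14, and 21 and at 436 to 659 CPM in 3xTg-AD alcohol, while 3xTg-AD 12, left out of that fit, stood at 534 CPM (15 UMIs). With all 16 mice Srsf11 was at 0.98 (edgeR adjusted p = 0.989), so that it was called only where mouse 12 and the 2 WT control mice were left out. Limma-voom on the 16 mice called 0 genes for genotype, with Rnf121 at -2.12 and an adjusted p of 0.744.

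No identity gene was called in any contrast. Of the 26 parvalbumin-cell identity genes, 6 passed the filter in the 8 mice, with log2 fold changes for genotype and alcohol of -0.20 and -0.32 for Erbb4, 0.05 and -0.12 for Kcnc1, -0.62 and 0.79 for Kcnc2, -0.29 and 0.52 for Mef2c, 0.48 and 0.65 for Tac1, and 1.09 and -0.66 for Btbd11. The medians of the 6 were -0.07 and 0.20, beside -0.06 and 0.03 for all 595 genes. By group, the median sum of the 10 markers was 2044 CPM in WT control and in WT alcohol, 1499 CPM in 3xTg-AD, and 2530 CPM in 3xTg-AD alcohol, with mice at 1817 to 2943, 1650 to 3494, 583 to 2232, and 2021 to 2789 CPM. All 4 ranges overlapped.

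The functional lists were counted in the same way. Called genes were found in the ribosomal RNA-associated list alone, with 1 of 4 tested genes for genotype and 2 of 4 for alcohol (medians of -0.91 and -1.13 on the log2 scale). These were Gm42418 for genotype and Gm42418 and Lars2 for alcohol, in fits where both WT control mice were rich in Gm42418. The lists were chosen with earlier results of these data known, so these calls are no separate result about the list. Over all 595 genes the shares called were 0.168% and 0.336%, so that a list of 4 to 20 genes with 0 calls does not depart from the background. No call was made among 4 potassium channel (medians -0.21 for genotype and -0.02 for alcohol), 6 sodium channel and ankyrin (-0.15 and -0.32), 11 calcium (-0.24 and -0.42), 4 GABA (-0.03 and 0.34), 8 glutamate receptor (-0.53 and 0.02), 14 vesicle (-0.21 and -0.06), and 16 adhesion genes (-0.43 and -0.29). The same held for 9 Alzheimer's disease genes (0.26 and 0.34), 20 mitochondrial genes (-0.07 and 0.16), and 14 chaperones (0.06 and 0.17). Genes of the MHC, activity, and glycine receptor lists did not pass the filter, so that changes in them were not detectable at this depth.

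The genes Glra2, Cntnap5c, and Cmss1, which the study names for 3xTg-AD mice exposed to alcohol, were too rare to test after the filter. Glra2, a glycine receptor subunit, had 7 UMIs in 6 Pvalb-positive nuclei, Cntnap5c 4 UMIs, and Cmss1 8 UMIs. Glra2 was seen in WT alcohol 17 and in 3xTg-AD 12, 3xTg-AD alcohol 31, 33, and 34, and in no WT control mouse. Among the mice fitted in 3xTg-AD alcohol versus WT control, Glra2 and Cntnap5c each had 1 UMI in 3xTg-AD alcohol 33 and 0 in the others, and Cmss1 had 1 UMI in WT control 27 and 0 in the others, so no fold change is given.

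Whether a group difference in Pvalb-positive nuclei departed from that in Sst nuclei of the same mice was tested over 3014 genes, with the mouse as a block. For genotype and for 3xTg-AD alcohol versus WT control, 0 genes were called by edgeR (0% and 0%). At an unadjusted p under 0.05 there were 145 and 106 genes, counts that are not read as changes either. The filter here read the counts of both kinds of nuclei, while 295 genes passed it in the Pvalb-positive nuclei of the 16 mice alone. Most of the 3014 genes thus had few UMIs in Pvalb-positive nuclei, where a difference could go uncalled. For these 2 contrasts no difference particular to Pvalb-positive nuclei was shown, and the remaining contrasts were not tested in this way.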

How the data were processed

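Cell Ranger 6.1.1, which uses STAR, had been run on the reads against mm10, and the authors deposited UMI counts per gene and nucleus without normalization, in a single table of 19999 genes and 114512 nuclei. Each column carries the name of its library, and all columns were used. Mice gave 4955 to 9096 nuclei and 9622031 to 17544364 UMIs each. Labels on the nuclei do not give cell types, so nuclei were chosen by the marker rule, and glutamatergic (at least 2 Slc17a7 UMIs, no Gad UMI), oligodendrocyte, and astrocyte nuclei (at least 2 UMIs of their markers) by like rules. The members and gene lists were chosen with earlier results of these data known. Levels are pooled CPM with exact 95% Poisson intervals, and shares carry exact Clopper-Pearson intervals.

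Counts were summed per mouse, for mice with at least 10 nuclei, and compared by the robust quasi-likelihood test of edgeR 4.0.16 (R 4.3.3) after filterByExpr and TMM scaling, with 1 mean per group. Genes with a Benjamini-Hochberg adjusted p up to 0.05 were called. The design had foreseen all 16 mice, of which 8 reached the minimum. The code was tested on simulated data. Genes named in a contrast are up to 12 called genes in each direction, called list genes, and the genes that the study's text names for parvalbumin neurons. Shares were compared by two-sided exact permutation tests over mice. The level of Pvalb over all nuclei and its presence in glutamatergic nuclei were compared in the same way, outside the design. Alternatives were DESeq2 1.42.0, RLE factors, no filter, stricter rules, a Gm42418 covariate, mice left out, and, added after seeing the data, all 16 mice, the 3 mice rich in Gm42418 left out of all 16 or of the shares, limma-voom (limma 3.58.1), and a ratio to Sst nuclei. Positions are from GENCODE annotation of GRCm38. Each sample was taken as a separate mouse, since the study describes 16 samples from 16 male mice. Human transgenes and doublets were not analysed here, and a few items of the lists and genotype are not reported here.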

Additional observations from a re-analysis of the deposited data

Results flagged for a closer look

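A value was singled out when, in a group of 4 mice, the gap of the highest or lowest mouse to its neighbor exceeded Dixon's 95% critical share of the group's range, which chance gives in about 1 in 20 groups. The values examined were the shares of Pvalb-positive and Sst nuclei, the UMIs and mitochondrial percentage of Pvalb-positive nuclei, Pvalb over all nuclei and in glutamatergic nuclei, and the named genes with at least 20 UMIs. Of 108 groups of values, 11 had such a mouse, and the causes were not tested.

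In WT control 26, Pvalb was at 39.8 CPM over all nuclei and 6.03% of glutamatergic nuclei held a Pvalb UMI. In WT control 27, Meis2 stood at 1253 CPM in Pvalb-positive nuclei and at 741 CPM over all nuclei, and Epha5 at 1907 CPM in Pvalb-positive nuclei. WT alcohol 17 had 88247 UMIs in its Pvalb-positive nuclei, against 18179 to 23903 in the other 3 mice of its group, so that pooled values of WT alcohol and of all mice lean on it. In 3xTg-AD 12, Gm42418 was at 17914 CPM, Lars2 at 1236 CPM, and Bc1 at 4550 CPM over all nuclei. In 3xTg-AD 21, Rnf121 was at 389 CPM in Pvalb-positive nuclei, from 2 UMIs, against 0 to 35.6 CPM in the other 3 mice, and mitochondrial UMIs were 4.102% in its 2 nuclei against 0.324% to 0.724%.

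The interaction of genotype and alcohol was flagged for Gm47283, at -4.78 on the log2 scale over 8 mice. The unexposed 3xTg-AD group was a lone mouse there and WT control was mice 26 and 27. The interaction was -5.74 to -4.16 over 7 fits that left out another mouse, none of which could leave out the lone 3xTg-AD mouse. With all 16 mice it was -2.67 and was not called. Whether the response to alcohol differs between the genotypes cannot be told from a group of 1 mouse.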

How the results depend on the processing

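The share of Pvalb-positive nuclei in 3xTg-AD against WT mice kept its sign and lost its unadjusted p under 0.05 as a share of GABAergic nuclei (-0.823), thinned to 1000 UMIs (-0.0363), with at least 2 Pvalb UMIs (-0.00660), per 100 Sst nuclei (-3.44), and without the 3 mice rich in Gm42418 (-0.0641). With single mice left out it ranged from -0.108 to -0.0729 percentage points, with an exact permutation p of 0.0171 to 0.0701, above 0.05 without WT control 26 or 27, WT alcohol 17, or 3xTg-AD 13 or 21. The sign of other share contrasts turned. For WT alcohol versus WT control it was 0.0303 thinned, 0.0111 with at least 2 Pvalb UMIs, and 0.0738 without the 3 mice. For 3xTg-AD alcohol versus WT control it was 0.0113 with at least 2 Pvalb UMIs and 0.00581 without the 3 mice. It was 0.000143 with at least 2 Pvalb UMIs versus WT alcohol, and per 100 Sst nuclei -1.10 versus 3xTg-AD and -3.91 for alcohol. With single mice left out, the share contrasts ranged from -0.155 to -0.0742 (3xTg-AD versus WT control), -0.0623 to 0.0253 (WT alcohol versus WT control), -0.123 to -0.0427 (3xTg-AD alcohol versus WT control), 0.00740 to 0.0585 (3xTg-AD alcohol versus 3xTg-AD), -0.0963 to -0.0259 (3xTg-AD alcohol versus WT alcohol, with p = 0.0286, an exact permutation test, without WT alcohol 6), and -0.0173 to 0.0337 (alcohol).

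Called genes, given for 3xTg-AD, WT alcohol, and 3xTg-AD alcohol each versus WT control, were 1, 2, and 2 with DESeq2, 1, 1, and 1 with the Gm42418 covariate (Meis2 in each, as in its 1 call for genotype), 0, 0, and 1 with all 16 mice, and 1, 0, and 2 with all 16 mice less the 3. Without the filter they were 1 for 3xTg-AD, and with all 16 mice 0 and 2 for 3xTg-AD and WT alcohol. With Slc17a7 at 0, 3 mice remained for WT alcohol, with 1 call. Leaving out the 3 mice from all 16 gave 1 call in 3xTg-AD alcohol versus 3xTg-AD, 1 versus WT alcohol, 2 for genotype, and 0 for alcohol, and limma-voom 0 for genotype. Alcohol had 0 calls with DESeq2, 1 without the filter, and 0 with the covariate, and the interaction 0 under all of these. Single mice left out gave 1 to 3, 3 to 7, and 1 to 9 calls versus WT control, 0 to 0 and 0 to 1 for 3xTg-AD alcohol versus 3xTg-AD and versus WT alcohol, 0 to 2 for genotype, 0 to 2 for alcohol, 1 to 3 for the interaction, and 0 to 1 (genotype) and 0 to 2 (3xTg-AD alcohol versus WT control) for the difference from Sst nuclei.

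With the Gm42418 covariate the sign of Lars2 turned, to 3.23, 2.93, and 3.45 versus WT control and 1.58 for alcohol, as did that of Gm42418, to 0.50, 0.68, and 0.84 versus WT control, 0.33 for genotype, and 0.51 for alcohol. None was called, with SEs of 1.46 to 2.72 for Lars2 and 1.03 to 2.07 for Gm42418, which loses its effect by construction when adjusted for its own library level. Without the 3 mice, of all 16, Lars2 was at 1.27, 0.0820, and 0.15 versus WT control and Epha5 at 0.0938 in 3xTg-AD alcohol versus WT control. The causes were not tested.

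No paired analysis was possible because the mouse numbers are not shared between groups. Gene contrasts with at least 2 Pvalb UMIs (0 mice with 10 nuclei), other contrasts with Slc17a7 at 0, contrasts with WT control in the 8 mice less the 3, and contrasts with 3xTg-AD without mouse 14 could not be run. With 8 mice, 4.30% of simulated 2-fold changes were called.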
